A study of Mus musculus with 12 samples.

Results

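Small nucleolar RNAs (snoRNAs) were followed across 4 kinds of mouse pancreatic cell on Affymetrix arrays. Their genes were found by name: every probe set with a single platform symbol that starts with Snord (C/D box) or Snora (H/ACA box) was taken, and the brightest probe set by its 12-array mean stood for its gene. This gave 73 genes of 22180, of which 47 are C/D box and 26 are H/ACA box genes. The annotated snoRNA genes are 48 to 221 bases long, with a median of 68 for C/D box and 118.5 for H/ACA box genes. Another 43 snoRNA probe sets, which the platform table gives several symbols, are not among them.

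SnoRNAs are short nucleolar RNAs that guide the chemical modification of ribosomal RNA. C/D box snoRNAs pair with the site at which fibrillarin, held with Nop56, Nop58 and Snu13, adds a methyl group to the ribose, and H/ACA box snoRNAs direct the pseudouridine synthase dyskerin (Dkc1), held with Nhp2, Nop10 and Gar1. A few, such as U3, U8 (Snord118) and U13 (Snord13), are made from promoters of their own, and of these U3 and U8 act in the cleavage of the ribosomal RNA precursor, whereas most lie in introns of host genes and are trimmed out of the spliced intron. Acinar cells of the pancreas make and secrete digestive enzymes and so carry a heavy load of ribosomes.

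Each group had 3 arrays. The adult and embryonic acinar cells were isolated from tissue by digestion and went to RNA extraction with no culture. The acinar-to-ductal metaplasia (ADM) group was kept in three-dimensional collagen for 7 days with Tgf-alpha at 50 ng/ml, and the tumor cells were low-passage cells in standard medium. The ADM and tumor groups thus differ from the adult and embryonic groups in culture as well as in cell state. Culture and cell state cannot be told apart in comparisons between them. The ADM and tumor groups also differ from each other in both, so the same limit holds for tumor cells against ADM cultures. The labels give the same wild-type C57Bl6/J strain for all 12 arrays, name no allele for the tumor cells, no age for the adult or embryonic cells and no separate animals or cultures, and the 3 tumor arrays carry descriptions with a common first number. The p-values below therefore measure the spread between these arrays, which may be technical. All RNA came from a column kit, and its recovery of RNAs as short as snoRNAs was not tested.

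By marker genes, the adult arrays were acinar (7 acinar markers measured, with a median level of 10.99 to 11.21 per array). In tumor cells that median was 3.71 to 3.87 and all 7 were called lower than in adult cells, as were 5 of 7 in the ADM cultures. Of 5 ductal markers, 4 were called higher in the ADM cultures, and in tumor cells 2 were called higher and 1, Sox9, lower. The embryonic arrays carried other cell types: all 6 mesenchymal, all 4 endothelial, all 4 endocrine 4 of 5 immune, 1 of 3 neural and the 1 measured erythroid marker were called higher than in adult cells. The summed linear signal of the mesenchymal list was 844 to 867 on adult, 5468 to 8605 on embryonic, 2100 to 4965 on ADM and 78 to 85 on tumor arrays, and that of the immune list 295 to 316, 1771 to 2638, 636 to 1037 and 91 to 107. That of the endocrine list was 1639 to 2240, 6163 to 7579, 567 to 999 and 98 to 184, so the adult arrays also carried other cell types. Of 4 endocrine markers, all 4 were called lower in tumor than in adult cells and 3 in ADM cultures. The part of these cells in the snoRNA differences was not tested, and in RNA from mixed cells fewer cells of a type and less RNA per cell cannot be told apart. All levels are log2 units of array signal, and a probe set was taken as above background at more than 3.62, a level under which 95% of the group means of 1394 odorant and pheromone receptor genes lay. A difference was called when limma's moderated test gave a Benjamini-Hochberg adjusted p under 0.05 over all 22180 genes together with a log2 change of at least 1.

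The host genes set a frame for the results, because snoRNAs of one host start their life in one transcript. A host was found for 70 of the 73 genes as the shortest annotated gene that spans them. There were 56 distinct hosts, 11 of which hold more than 1 of the snoRNAs measured here. By class, 20 snoRNAs lie in non-coding genes, 18 in genes of ribosomal proteins and 32 in other protein genes. The remaining 3, Snord13, Snord118 and Snord89, have no annotated host. Host genes of snoRNAs are known for starts in a run of pyrimidines, the mark of transcripts whose translation follows the growth state of the cell. Windows from 30 bases before to 20 bases into the transcript are shown for 4 non-coding hosts on which results below turn, 5′ to 3′ on the transcribed strand of GRCm38.p6 as RefSeq's promoter table gives them. Capitals mark an unbroken run of C or T of at least 5 bases that includes the annotated start base.
Snhg12, chr4:132308648-132308697, plus strand: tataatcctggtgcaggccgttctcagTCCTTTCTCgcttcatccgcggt
2410006H16Rik, chr11:62602847-62602896, plus strand: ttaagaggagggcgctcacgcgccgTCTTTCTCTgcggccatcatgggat
Snhg18, chr15:32244643-32244692, minus strand: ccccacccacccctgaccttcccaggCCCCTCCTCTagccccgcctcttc
Snhg3, chr4:132353667-132353716, minus strand: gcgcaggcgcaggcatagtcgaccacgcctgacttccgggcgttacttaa
Of the 4 hosts, Snhg12, 2410006H16Rik and Snhg18 hold such a run, and Snhg3 has none at the start base given. Among the 44 hosts with a window in the table, 8 hold such a run (18.2%), including 5 of 11 non-coding hosts (45.5%), against 2694 of 27025 genes (9.97%). It was 1 of 9 ribosomal protein hosts (11.1%) and 2 of 24 other protein hosts (8.33%), both near the share of all genes. Only the transcribed strand was searched, the match depends on the exact start base annotated, and it is a description of these letters. A run elsewhere in the window, such as that shortly after the start base given for Rps12, was not counted. The shares thus do not show that the other hosts, those of ribosomal proteins among them, lack such a start.

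Of the 73 snoRNA genes, 40 lay above background in all 4 groups and 15 in none. The C/D box genes made up 13 of those 15 and the H/ACA box genes 2. Above background were 45 genes in adult cells, 45 in embryonic cells, 51 in ADM cultures and 56 in tumor cells. A probe within a snoRNA also matches the unspliced host transcript, and the mature RNA and its precursor cannot be told apart on these arrays.

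The tumor arrays differed among themselves in the snoRNAs far more than in other genes. The median snoRNA level was 4.08, 5.55 and 4.86 on tumor arrays 1, 2 and 3, whereas the median of all genes was 3.85, 3.84 and 3.81. The median SD of a snoRNA gene over these 3 arrays was 0.66, against 0.21 for all genes, and over the adult, embryonic and ADM arrays it was 0.39, 0.28 and 0.20. Tumor array 2 gave the highest value of the 3 for 57 of 73 snoRNA genes (78.1%, against 31.7% of all genes), and it exceeded array 1 by a median of 1.03 in snoRNAs, 0.25 in their 43 measured hosts, 0.03 in 472 microRNA genes and 0.00 in all genes. Over 15 other small non-coding RNA genes, a list chosen with values in view, the median went the opposite way (-0.24), and 11 of the 15 (73.3%) were highest on array 1. All 18 snoRNAs of ribosomal protein genes were higher on array 2 than on array 1, with a median difference of 1.47. The 3 genes with no annotated host went the other way, each with its highest tumor value on array 1. The snoRNP core proteins were also higher on array 2 than on array 1, by a median of 0.83 over 7 genes, and 28 genes of ribosomal RNA synthesis by a median of 0.75. The whole-array correlations within the tumor group were 0.968 and 0.969 for pairs with array 1 and 0.987 between arrays 2 and 3, and within the adult group they were 0.967 to 0.971. In the tumor comparisons, the counts of snoRNA genes called higher are given below with and without arrays 1 and 2. The shares of all genes called that are set beside them come from the fit to all arrays. Whether a change in count on leaving out an array is particular to snoRNAs cannot be read from them. For the lists of protein and non-coding host genes, medians on each tumor array are given. What sets the tumor arrays apart was not tested.

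**Figure D1:**
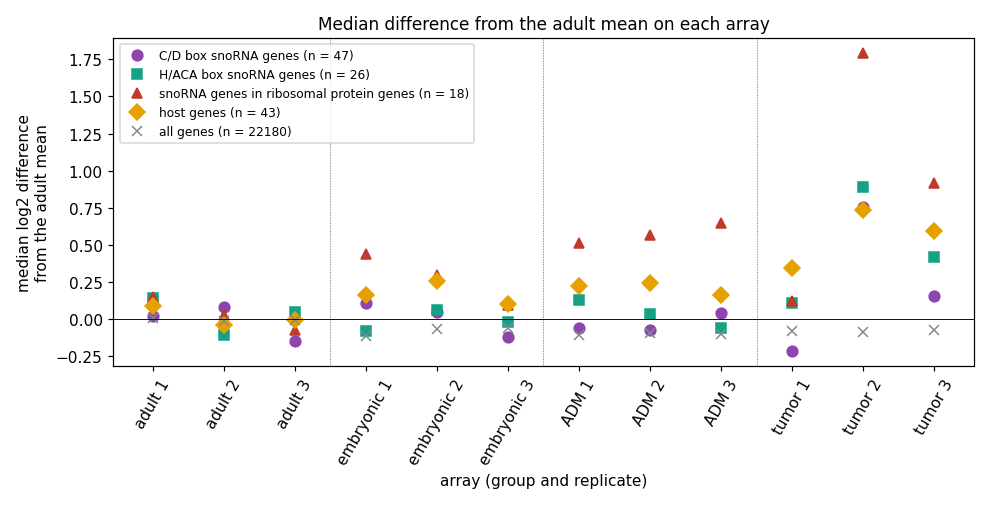
Median over a gene group of the level on each array minus the adult mean of the same gene (log2 units, vertical axis), for the 12 arrays (horizontal axis), with C/D box, H/ACA box and ribosomal-protein-hosted snoRNA genes, host genes and all genes as separate symbols. Over all 73 snoRNA genes the 3 tumor arrays stand at -0.16, 0.85 and 0.18, and the snoRNAs in ribosomal protein genes are the highest symbols on tumor arrays 2 and 3.

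The comparison of tumor with adult acinar cells held the most snoRNA calls. Higher in tumor cells were 15 of 73 snoRNA genes (20.5%, against 14% of all genes), and lower were 6 (8.22%, against 5.96% of all genes). The median change was 0.30 over the snoRNA genes and -0.09 over all genes. With arrays centred on 12 housekeeping genes, these medians were -0.40 and -0.79, so the sign of the snoRNA median depended on the scaling. The counts were 17 higher and 10 lower after quantile, 15 and 10 after cyclic loess normalization, and 9 and 14 after housekeeping centring, and of all genes called 53.6%, 50% and 18.1% were then higher, against 70.2% here. Without tumor array 1 the calls were 25 higher and 6 lower, and without tumor array 2 they were 10 higher and 9 lower with a median of 0.04. The 12 housekeeping genes themselves rose in tumor over adult cells, by a median of 0.92 with 5 called higher (41.7%, against 14% of all genes). For ADM cultures their median was 0.81 with 4 called higher (33.3%, against 12.5%). Centring on them takes such a shift from all genes alike.

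**Figure D2:**
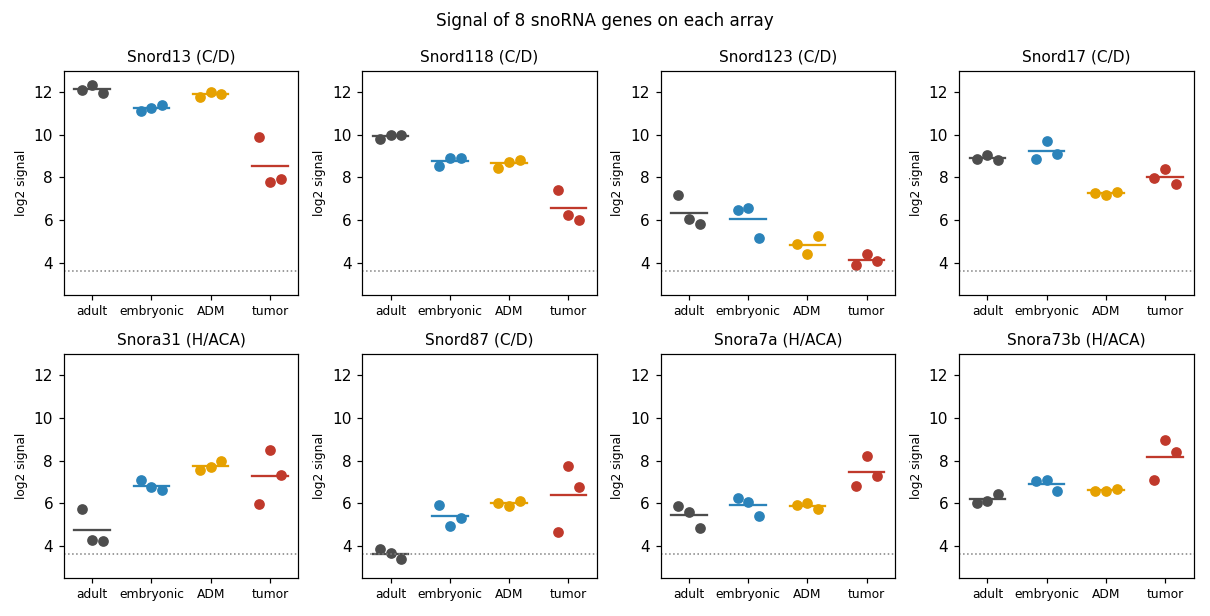
Levels (log2 array signal, vertical axis) of 8 snoRNA genes by group (horizontal axis), with a point for each array in replicate order, a line for each group mean and a dotted line at the background level of 3.62. Snord13 and Snord118 are lowest on the 3 tumor arrays, Snord17 is lowest in ADM cultures, and Snora31 lies above its adult values in the other 3 groups.

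The largest falls were those of Snord13 and Snord118, which have no annotated host. Snord13 (U13), which guides the acetylation of the small-subunit ribosomal RNA, read 12.09, 12.33 and 11.96 in adult cells, 11.09, 11.24 and 11.41 in embryonic cells, 11.79, 12 and 11.90 in ADM cultures and 9.87, 7.77 and 7.91 in tumor cells. All tumor arrays lay below all others, array 1 by the least. Snord13 was 12.2-fold lower in tumor than in adult cells (log2 change -3.61 ± 0.40 SE, limma adjusted p = 9.033e-06). Its ADM and embryonic changes from adult cells, -0.23 and -0.88, were not called. Snord118 (U8), needed to release the large-subunit and 5.8S ribosomal RNAs from their precursor, read 9.78, 10 and 9.98 in adult cells, 8.51, 8.93 and 8.90 in embryonic cells, 8.45, 8.72 and 8.82 in ADM cultures and 7.41, 6.22 and 6.01 in tumor cells. The adult values were the highest and the tumor values the lowest, with no overlap between either and any other group. Its fall from adult cells was called in all 3 comparisons, at -1.14 ± 0.29 in embryonic cells (adjusted p = 0.009922), -1.26 ± 0.29 in ADM cultures (adjusted p = 0.004047) and -3.37 ± 0.29 in tumor cells (adjusted p = 7.737e-07, 10.4-fold). These 3 comparisons share the adult arrays. Both genes were also lower in tumor cells than in ADM cultures, by -3.38 ± 0.40 for Snord13 and -2.12 ± 0.29 for Snord118 (adjusted p = 6.165e-05 and 0.0001966), and lower than in embryonic cells (-2.73 and -2.23, adjusted p = 0.0001884 and 5.835e-05).

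Snord89, a C/D box gene also without an annotated host here, read 9.51, 8.92 and 8.99 in adult cells, 7.33, 8.41 and 6.91 in embryonic cells, 8.66, 7.73 and 8.76 in ADM cultures and 7.75, 7.17 and 7.39 in tumor cells. No array of the other groups reached the adult values. The fall was called in embryonic cells (-1.59 ± 0.36, adjusted p = 0.004828) and tumor cells (-1.70 ± 0.36, adjusted p = 0.001842), and was -0.76 in ADM cultures, not called. U3, the most abundant of the processing snoRNAs, is not among the 73 genes because the platform names it Rnu3a. It read 11.22, 11.55 and 11.37 in adult cells, 11.57, 11.94 and 11.69 in embryonic cells, 9.90, 8.60 and 9.32 in ADM cultures and 7.53, 7.11 and 6.81 in tumor cells. U3 was thus lower in ADM cultures (-2.11 ± 0.28, adjusted p = 5.685e-05) and 18.8-fold lower in tumor cells (-4.23 ± 0.28, adjusted p = 6.658e-08), with an embryonic change of 0.35 that was not called. U3 was looked up after the falls of U8 and U13 had been seen. It is 1 of 15 other small non-coding RNA genes, chosen with values in view. Of these 15, 3 were called lower in tumor cells (20%, against 5.96% of all genes) and 1 higher (6.67%, against 14%). The lower ones were U3, Rpph1 (the RNA of RNase P, -1.61) and Rnu11 (the U11 RNA of the minor spliceosome, -1.28). Rn7sk, the abundant 7SK RNA, changed by -0.07 and was not called, and Terc, the telomerase RNA, which has an H/ACA domain, was called higher (2.39 ± 0.30, adjusted p = 2.868e-05).

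Another 4 C/D box genes were called lower in at least 1 comparison with adult cells, all of them within hosts. Snord99, in an intron of Snhg12, read 6.58, 6.87 and 6.86 in adult cells, 4.63, 4.56 and 4.55 in embryonic cells, 5.37, 4.17 and 5.48 in ADM cultures and 4.82, 5.86 and 4.47 in tumor cells. Adult arrays stood above all others, and the fall was called in embryonic cells (-2.19 ± 0.35, adjusted p = 0.0004488), ADM cultures (-1.76 ± 0.35, adjusted p = 0.001575) and tumor cells (-1.72 ± 0.35, adjusted p = 0.001565). Snord17, the longest snoRNA measured here, in Snx5, read 8.84, 9.07 and 8.80 in adult cells, 8.87, 9.71 and 9.08 in embryonic cells, 7.26, 7.16 and 7.31 in ADM cultures and 7.96, 8.37 and 7.68 in tumor cells. Its lowest values were those of the ADM arrays. It was lower in ADM cultures than in adult cells (-1.66 ± 0.22, adjusted p = 6.026e-05) and than in embryonic cells (-1.98 ± 0.22, adjusted p = 2.74e-05). In tumor cells it was called lower than in embryonic cells (-1.22 ± 0.22, adjusted p = 0.0009751), a call that was lost without embryonic array 2 (-0.97). Snord123, in Snhg18, read 7.15, 6.03 and 5.81 in adult cells, 6.45, 6.55 and 5.14 in embryonic cells, 4.85, 4.38 and 5.26 in ADM cultures and 3.90, 4.42 and 4.09 in tumor cells. It was lower in ADM cultures (-1.5 ± 0.40, adjusted p = 0.009798) and in tumor cells (-2.19 ± 0.40, adjusted p = 0.0005873), and its embryonic arrays overlapped the adult ones. Snord88c was lower in ADM cultures, where it was not above background (at least 2.61-fold, adjusted p = 0.004019), and in tumor cells (-1.28 ± 0.35, adjusted p = 0.01032), the latter not called without adult array 2 (-0.88).

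Among the genes that rose, Snora31 and Snord87 were called higher than in adult cells in all 3 other groups, and Snord16a in the ADM cultures and tumor cells. Snora31, an H/ACA box gene in Tpt1, the gene of the translationally controlled tumor protein, read 5.75, 4.27 and 4.22 in adult cells, 7.09, 6.75 and 6.62 in embryonic cells, 7.58, 7.68 and 7.97 in ADM cultures and 5.96, 8.51 and 7.31 in tumor cells. Each of these 9 arrays was above the adult ones, tumor array 1 by the least. The rise was 7.98-fold in ADM cultures (3.00 ± 0.52, adjusted p = 0.0005143), 4.21-fold in embryonic cells (2.07 ± 0.52, adjusted p = 0.00921) and 5.71-fold in tumor cells (2.51 ± 0.52, adjusted p = 0.001615). Snord87, in the non-coding Snhg6, read 3.83, 3.66 and 3.40 in adult cells, 5.91, 4.93 and 5.32 in embryonic cells, 6.0, 5.87 and 6.12 in ADM cultures and 4.63, 7.76 and 6.77 in tumor cells. Adult cells lay at the background level, and the rise was 2.37 ± 0.55 in ADM cultures (adjusted p = 0.004625), 1.76 ± 0.55 in embryonic cells (adjusted p = 0.0301) and 2.76 ± 0.55 in tumor cells (adjusted p = 0.001347). The embryonic call of Snord87 was lost on leaving out any adult array or embryonic array 1 or 3 (1.5 to 1.86). Snord16a, in the ribosomal protein gene Rpl4, read 5.10, 4.84 and 4.29 in adult cells, 5.66, 6.76 and 5.26 in embryonic cells, 7.28, 6.50 and 6.99 in ADM cultures and 5.78, 8.37 and 7.41 in tumor cells. It rose in ADM cultures (2.18 ± 0.53, adjusted p = 0.00614) and in tumor cells (2.44 ± 0.53, adjusted p = 0.002481).

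The H/ACA box genes that rose in tumor cells included Snora7a, in Rpl32. It read 5.85, 5.6 and 4.84 in adult cells, 6.23, 6.08 and 5.42 in embryonic cells, 5.92, 6.0 and 5.75 in ADM cultures and 6.82, 8.23 and 7.30 in tumor cells. All tumor arrays were above all others, and the change was 2.02 ± 0.34 from adult cells (adjusted p = 0.0003271), 1.56 ± 0.34 from ADM cultures (adjusted p = 0.006413) and 1.54 ± 0.34 from embryonic cells (adjusted p = 0.003977). Snora62, in Rpsa, had the smallest standard error of the genes called higher. It read 3.51, 3.83 and 3.76 in adult cells, 4.18, 3.97 and 4.27 in embryonic cells, 4.90, 4.43 and 4.36 in ADM cultures and 5.12, 5.61 and 5.07 in tumor cells, so that tumor arrays were again the highest. Its change from adult cells was 1.57 ± 0.19 (adjusted p = 2.166e-05). Snora73a and Snora73b, the U17 snoRNAs that act in small-subunit RNA processing rather than pseudouridylation, share the host Snhg3. Snora73b read 6.03, 6.11 and 6.44 in adult cells, 7.03, 7.08 and 6.55 in embryonic cells, 6.58, 6.58 and 6.65 in ADM cultures and 7.10, 8.97 and 8.40 in tumor cells. It rose in tumor cells against adult cells (1.96 ± 0.35, adjusted p = 0.0005131) and against ADM cultures (1.55 ± 0.35, adjusted p = 0.007715). Snora73a rose by 1.26 ± 0.36 from adult cells (adjusted p = 0.01442), but not with quantile normalization (0.71) or cyclic loess (0.78), nor without tumor array 2 (0.85) or 3 (1.18).

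There were 8 further rises in tumor over adult cells. Snord53, in the nucleolar protein gene Wdr43, rose 3.33-fold (1.74 ± 0.44, adjusted p = 0.006909), although 1 adult array (4.93) overlapped the tumor values of 4.67, 6.79 and 6.10. The remaining 7 were not above background in adult cells, so that their folds are lower bounds, taken against the background level. Snora74a in Snhg4 was at least 4.03-fold higher in tumor cells, Snord52 in 1110038B12Rik at least 3.69-fold, Snord42b in Rpl23a at least 3.06-fold and Snord49a in 2410006H16Rik at least 2.19-fold, with adjusted p of 0.005924, 0.006176, 0.007411 and 0.03145. The tumor values of these 4 were highest on array 2 and lowest on array 1, with Snord52 at 4.08, 6.96 and 5.47 and Snord42b at 3.43, 6.78 and 5.49. Snora69 in Rpl39, Snord73b in Rps3a1 and Snord15a in Rps3 were at least 1.85-fold, 1.62-fold and 1.53-fold higher. Without tumor array 2, Snord49a (0.86), Snora69 (0.84), Snord73b (0.70) and Snord15a (0.82) were not called. Snord49a was also lost without adult array 2 (1.32) or 3 (0.92) or tumor array 3 (1.16), and Snord15a without adult array 1 (1.03) or 3 (0.77) or tumor array 1 (1.0). Snord22 (U22, a small-subunit processing snoRNA in Snhg1) read 5.27, 8.16 and 7.27 in tumor cells against 5.52, 4.67 and 6.33 in adult cells, a change of 1.39 ± 0.57 that was not called (adjusted p = 0.07309). Snord47 in Gas5 and Snord35a in Rpl13a, whose tumor changes were 0.29 and 0.73, were not called either.

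**Figure D3:**
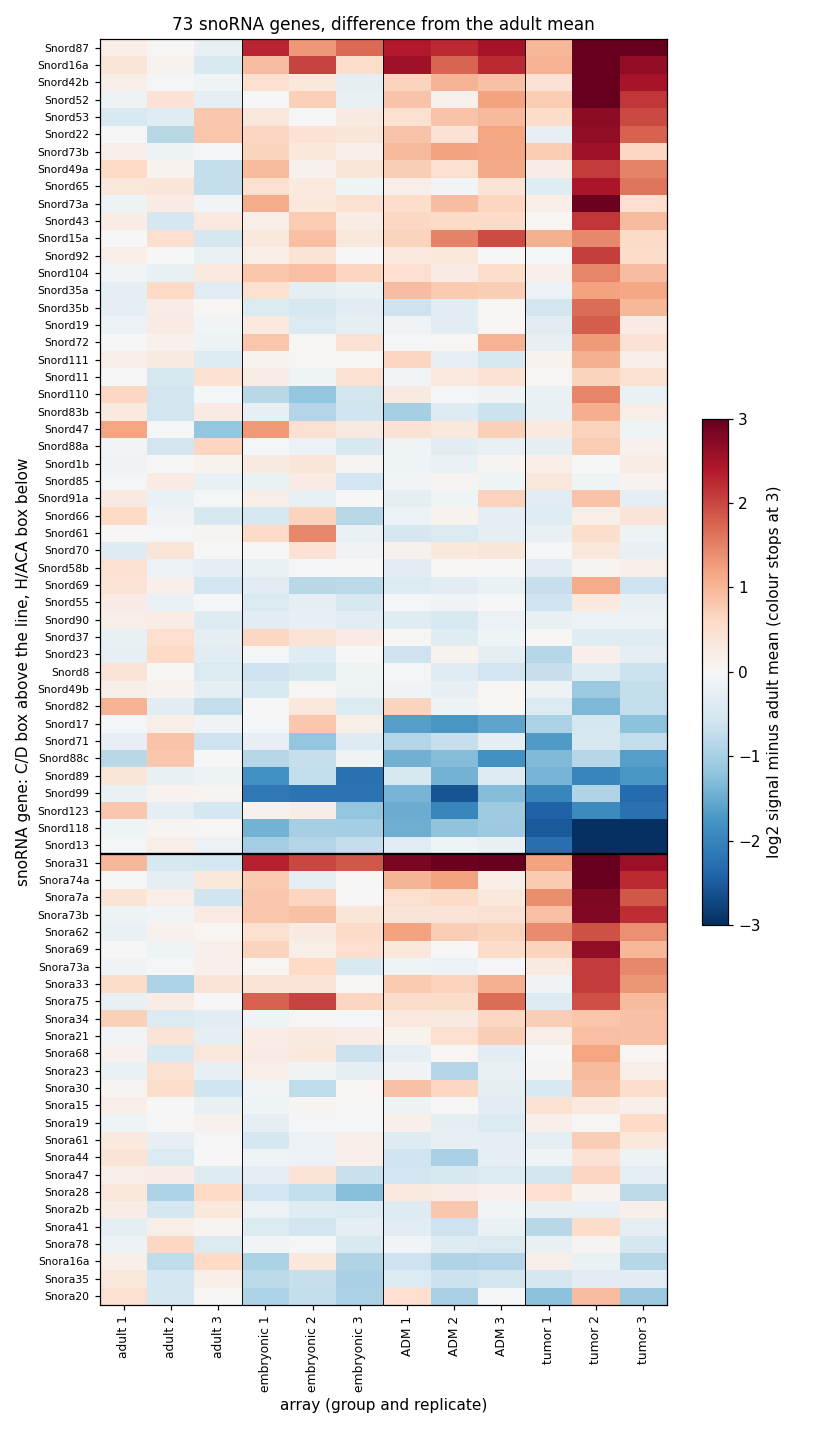
Level minus the adult mean (log2 units, colour scale that stops at 3 in either direction) of each of the 73 snoRNA genes (rows, C/D box above the black line and H/ACA box below, sorted by the tumor change) on the 12 arrays (columns). The column of tumor array 2 is red for most genes and that of tumor array 1 paler, whereas Snord13, Snord118, Snord123 and Snord99 are blue in all 3 tumor columns.

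In ADM cultures against adult cells, 5 of 73 snoRNA genes were called higher (6.85%, against 12.5% of all genes) and 5 lower (6.85%, against 4.22%). The higher genes were Snora31, Snord87, Snord16a, Snord15a (at least 1.94-fold, adjusted p = 0.006287) and Snord73b (at least 1.41-fold, adjusted p = 0.03434). The lower genes were Snord99, Snord17, Snord88c, Snord123 and Snord118, all C/D box. The median change was -0.05 over the snoRNA genes and -0.11 over all genes. The lower count was 10 after quantile, 9 after cyclic loess normalization and 10 after housekeeping centring, where 3 were higher, and of all genes called 54.1%, 56.3% and 38% were then higher, against 74.7% here. Snord73b was not called when any 1 of the adult or ADM arrays was left out (1.04 to 1.21).

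In embryonic against adult acinar cells, 3 snoRNA genes were called higher (4.11%, against 10% of all genes) and 3 lower (4.11%, against 2.61%). Higher were Snora31, Snord87 and Snora75, an H/ACA box gene in the nucleolin gene Ncl, which read 3.74, 4.20 and 3.97 in adult cells and 5.75, 6.0 and 4.61 in embryonic cells (1.48 ± 0.51, adjusted p = 0.04316). The count of higher genes was 1 after cyclic loess normalization and 2 after quantile normalization, and 6 were lower after quantile normalization and after housekeeping centring. Of all genes called, 79.3% were higher here, against 57.3% after quantile and 65.5% after loess normalization and 65.3% after housekeeping centring. The call of Snora75 was lost when any adult array, or embryonic array 1 or 2, was left out (1.21 to 1.6). Lower were Snord99, Snord89 and Snord118. The markers of other cell types given above moved with this comparison.

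Tumor cells against ADM cultures gave 4 snoRNA genes higher (5.48%, against 3.28% of all genes) and 2 lower (2.74%, against 5.07%). Snora7a, Snora73b, Snora73a (1.38 ± 0.36, adjusted p = 0.01958) and Snord83b in Rpl3 (1.02 ± 0.32, adjusted p = 0.04926) were higher, and Snord13 and Snord118 were lower. Without tumor array 1, 15 genes were called higher, and without tumor array 2 it was 2. The call of Snora73a was lost without any 1 ADM array (1.35 to 1.42) or tumor array 2 (0.97) or 3 (1.3), and that of Snord83b without any 1 ADM array (0.86 to 1.17) or tumor array 2 (0.65) or 3 (1.11). After housekeeping centring 4 were lower, and with array weights 11 were higher and 4 lower. Against embryonic cells, 9 genes were higher in tumor cells (12.3%, against 6.53%) and 4 lower (5.48%, against 7.8%), and the count of higher genes was 23 without tumor array 1, 3 without tumor array 2 and 18 with array weights. After housekeeping centring it was 4 higher and 8 lower. The 9 were Snora62, Snora73a, Snora73b, Snora7a, Snora74a, Snord42b, Snord52, Snord53 and Snord110. Without tumor array 2, calls were kept for Snora7a, Snora74a and Snord52, of which Snora74a was lost without embryonic array 2 (1.91) and Snord52 without embryonic array 3 (1.83). The 4 lower were Snord13, Snord118, Snord123 and Snord17. Between ADM cultures and embryonic cells, limma called none of the 73 higher (against 4.55% of all genes, with 6 at an unadjusted p under 0.05) and 2 lower (2.74%, against 4.91%). The 2 were Snord17 and Snord61, the latter not above background in either group by its mean and not called without embryonic array 2 (-0.6).

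The C/D box and H/ACA box classes were set side by side without a test of their difference, since genes are not replicates of a condition. In tumor against adult cells, 8 of 47 C/D box genes were higher (17%, against 14% of all genes) and 6 lower (12.8%, against 5.96%), with a median change of 0.20. Of the 26 H/ACA box genes, 7 were higher (26.9%) and none lower by limma (none at an unadjusted p under 0.05), with a median of 0.36. Box and host class overlap: the 3 genes with no annotated host are all C/D box, and they made up 3 of the 6 lower calls. Detection differed as well, with 13 of 47 C/D box and 2 of 26 H/ACA box genes above background in no group. The part of either in the shares called was not tested. No H/ACA box gene was called lower in any of the 6 comparisons, although at an unadjusted p under 0.05 there were 2 lower in ADM cultures and 2 in embryonic cells against adult cells and 1 in ADM cultures against embryonic cells. H/ACA box genes were called lower with other settings: quantile normalization gave 3 in ADM cultures against adult cells and housekeeping centring gave 2 in tumor against adult cells. Without tumor array 1, 16 C/D box and 9 H/ACA box genes were higher. Without tumor array 2, 5 of each class were higher, the medians were -0.02 for C/D box and 0.21 for H/ACA box genes in tumor against adult cells, and 1 H/ACA box gene was called lower. Between length and the tumor minus adult difference, Spearman's rho was -0.16 over the C/D box and 0.29 over the H/ACA box genes (0.07 over all 73), given as a description of genes measured on the same arrays.

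The genes were then grouped by the class of their host, again with no test of the difference between classes. Of the 18 snoRNAs in ribosomal protein genes, 7 were called higher in tumor than in adult cells (38.9%, against 14% of all genes) and none lower by limma (none at an unadjusted p under 0.05), with a median change of 1.04. This median was 1.07 after quantile and 1.01 after cyclic loess normalization, 0.35 after housekeeping centring (3 called), 1.44 without tumor array 1 (11 called) and 0.52 without tumor array 2 (4 called). Of the 20 in non-coding genes, 6 were higher (30%) and 2 lower (10%, against 5.96% of all genes), with a median of 0.27. Of the 32 in other protein genes 2 were higher (6.25%) and 1 lower (3.12%), with a median of 0.07, and the counts became 5 and 1 without tumor array 1 and 2 and 3 without tumor array 2. With housekeeping centring the medians of these classes turned to -0.42 and -0.63. Detection differed by class: of the 32 in other protein genes, 12 lay above background in no group and 12 in all 4. Above background in no group were 2 of the 18 in ribosomal protein genes and 1 of the 20 in non-coding genes. The part of detection in the shares called was not tested. In ADM cultures against adult cells, 3 of the 18 in ribosomal protein genes were higher (16.7%, near the 12.5% of all genes; median 0.52).

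Most snoRNAs that rose did so without a called rise of the host gene's own probe set. Both could be measured for 57 snoRNA and host pairs over 43 hosts. Of the 43 hosts, 15 were themselves called higher in tumor than in adult cells (34.9%, against 14% of all genes) and 1 lower, with a median change of 0.58 (-0.12 after housekeeping centring). Of the 15 snoRNAs higher in tumor than in adult cells, 4 had a host that was also called higher, and 11 had a host with no call. Among the pairs whose snoRNA was not called, 19 had a host called higher and 20 a host with no call. Rpl32, host of Snora7a, changed by 0.17, Rpsa, host of Snora62, by -0.01, Rpl4, host of Snord16a, by -0.14, Rpl23a, host of Snord42b, by -0.27, and Tpt1, host of Snora31, by -0.41. In adult cells these hosts were already bright, at 12.53, 11.10, 12.04, 11.55 and 12.47. Whether a rise can be read in full at such levels was not tested. A host with no call may still have moved: Snhg6, host of Snord87, read 10.38 in adult and 11.05 in tumor cells. Rpl39, host of Snora69, read 4.16 and 4.12, near the background level of 3.62. The 4 hosts called higher were the non-coding 1110038B12Rik (2.69), Snhg4 (2.12) and 2410006H16Rik (1.42) and the protein gene Wdr43 (1.04). Across the 57 pairs the change of the snoRNA and that of its host had a Spearman's rho of -0.08 in tumor against adult cells and 0.47 in tumor cells against ADM cultures. The pairs share arrays and some share a host, so this is a description.

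Of the 3 lower snoRNAs with a measured host, 1 moved with the host and 2 against it. Snhg18, host of Snord123, read 8.75, 8.85 and 8.85 in adult cells, 8.98, 8.87 and 8.62 in embryonic cells, 7.88, 7.26 and 7.91 in ADM cultures and 7.18, 5.42 and 4.59 in tumor cells. It fell with its snoRNA in tumor cells (-3.09 ± 0.46). Snhg12, host of Snord99, read 6.53, 6.08 and 6.43 in adult cells, 7.28, 7.37 and 7.08 in embryonic cells, 7.23, 6.89 and 7.07 in ADM cultures and 7.84, 8.35 and 7.64 in tumor cells. Its values lay above the adult ones in all 3 groups in which those of Snord99 lay below, and its tumor change was called (1.6 ± 0.20). The host of Snord88c, 2410002F23Rik, was likewise called higher in tumor cells (1.17 ± 0.24). In ADM cultures against adult cells, no host of the 5 higher snoRNAs or of the 4 lower snoRNAs with a measured host was called. Some of these hosts had a limma adjusted p under 0.05 but fell short of the fold minimum. They were Snhg6 (0.82, adjusted p = 0.000758), Rps3a1 (-0.82, adjusted p = 0.0005366), Snhg12 (0.72, adjusted p = 0.01212) and Snx5 (0.49, adjusted p = 0.0437). Snhg18 changed by -1.13 (adjusted p = 0.0708), with all ADM arrays below the adult ones.

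**Figure D4:**
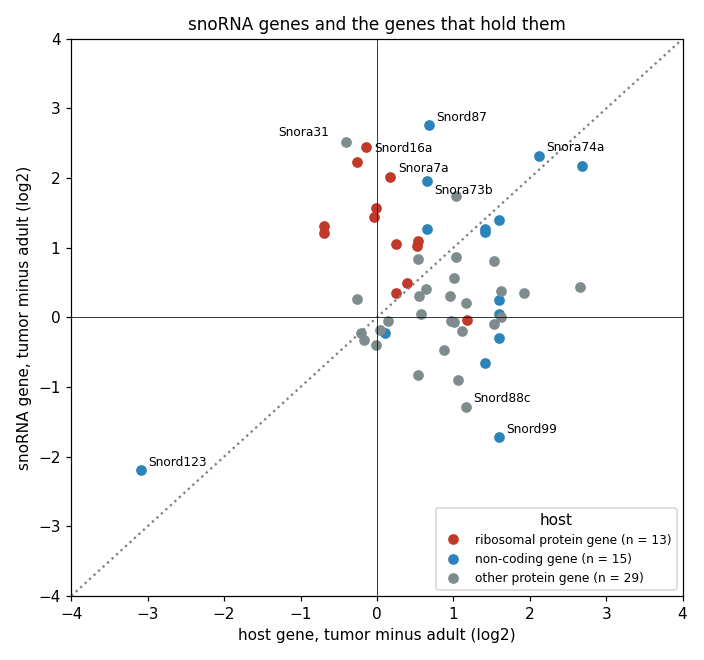
Change of each snoRNA gene (vertical axis) against that of its host gene (horizontal axis), tumor minus adult, both in log2 units, for the 57 pairs measured, coloured by host class, with the dotted line at equal change. Most snoRNAs of ribosomal protein genes lie above the line with host changes near 0, Snord99 and Snord88c lie below 0 with hosts above it, and Snord123 fell with Snhg18.

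SnoRNAs cut from the same host also moved apart. Snhg12 holds 4 of the genes, and only Snord99 was called in tumor against adult cells (-1.72), with Snora16a at -0.29, Snora44 at 0.05 and Snora61 at 0.26. 2410006H16Rik holds Snord49b, Snord65 and Snord49a, which changed by -0.66, 1.23 and 1.27, and only the last was called. Snord49b read 10.78, 10.71 and 10.33 in adult cells and 10.45, 9.50 and 9.90 in tumor cells, so it was lowest on tumor array 2, on which Snord65 (9.27) and Snord49a (5.57) had their highest tumor values. In Ncl, Snora75 changed by 0.84 and Snord82 by -0.83, neither called. In Snhg3, Snora73a and Snora73b both rose (1.26 and 1.96) with a host change of 0.65 that was not called. Differences between snoRNAs of one host were not tested.

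The proteins that bind and modify with snoRNAs were measured as a list chosen with earlier results of these data known. Of the 8 core proteins of the 2 classes of particle, 7 had a probe set with a single symbol (fibrillarin did not). In tumor against adult cells 5 were higher: Nop56 by 1.93 ± 0.28, Dkc1 by 1.88 ± 0.29, Nop58 by 1.63 ± 0.31, Nhp2 by 1.61 ± 0.25 and Gar1 by 1.44 ± 0.24. Snu13 (0.93) and Nop10 (0.37) were not called. The median of the 7 was 1.61, and 0.91 with housekeeping centring, where 2 were called and Nop10 turned below 0. On tumor arrays 1, 2 and 3 the median difference of the 7 from the adult mean was 0.97, 1.88 and 1.95. In ADM cultures Nop56 and Nop58 were called higher (1.16 and 1.15, 2 of 7 or 28.6%), but neither was under the 3 other scalings, and none was called by limma in embryonic cells (1 at an unadjusted p under 0.05).

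The assembly factors, which load the proteins onto the nascent snoRNA, were higher in tumor cells for 9 of 12 genes (median 1.75), among them Ruvbl2 (2.25), Znhit6 (2.17), Nufip1 (2.17) and Ruvbl1 (2.13). In ADM cultures it was 5 of 12 (41.7%, against 12.5% of all genes) and in embryonic cells 3 of 12 (25%, against 10%). Of 15 genes of snoRNA trimming, capping, export and decay, 8 were higher in tumor cells, 4 in ADM cultures (26.7%) and 5 in embryonic cells (33.3%), and none was called lower by limma (at an unadjusted p under 0.05, 1 was lower in embryonic cells and none in the other groups). Dis3, the exosome nuclease, rose by 3.21 in tumor cells, Xrn2, the nuclear exonuclease that trims snoRNA ends, by 2.18, Tgs1, the enzyme that hypermethylates the cap of U3 and U8, by 2.09, and Xpo1, the export receptor, by 3.13. Of 28 genes of ribosomal RNA synthesis and processing, 16 were higher in tumor cells (median 1.05), 5 in ADM cultures (17.9%, near the 12.5% of all genes) and 1 in embryonic cells (3.57%, below the 10% of all genes). Nop2, a ribosomal RNA methyltransferase, rose by 2.61 in tumor cells, and Utp15, a small-subunit processome protein, by 2.23. In the quantile and loess scalings the tumor count of this list was 7 and 6, and with housekeeping centring 5. Of 23 non-coding genes known to host several snoRNAs, 19 were measured, and 9 were higher and 1, Snhg18, lower in tumor cells, with 5 (26.3%) and 7 (36.8%) higher in ADM cultures and embryonic cells. Snhg5 rose most, by 4.16 in tumor cells. With housekeeping centring 4 were higher and 3 lower in tumor cells. The tumor counts of these lists stand against 14% of all genes called higher and 5.96% called lower. On tumor arrays 1, 2 and 3 the median difference from the adult mean was 1.41, 1.79 and 2.05 for the assembly factors. It was 0.74, 1.12 and 1.06 for the trimming and decay list and 0.45, 1.36 and 1.19 for the ribosomal RNA list. For the non-coding hosts it was 0.46, 1.24 and 0.59.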

How the data were processed

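RNA from 12 samples, 3 in each of 4 groups by the titles, was measured on 1 Affymetrix array each. The deposited table holds the authors' normalized log2 values for 41345 probe sets. The log base was read from the range of the values, and the normalization software is not given in the sources used here. GEO's platform table gave 1 symbol to 23521 probe sets, several to 1814 and none to 16010, and the brightest probe set was kept for each of 22180 genes.

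Group means were fitted over all 12 arrays with limma 3.58.1 (lmFit and eBayes, R 4.3.3; 8 residual degrees of freedom), and p-values were adjusted by Benjamini-Hochberg over all genes of each of 6 contrasts. Standard errors (SE) are those of this fit. An exact permutation test of 3 against 3 arrays cannot go below 0.1 and was not used. Hosts were read from RefSeq gene spans (GRCm38.p6), in which all 73 genes were found. That table gives no strand, so a host on the other strand could not be left out, which departs from the design. Arrays give no read depth, and their number limits the precision. The script was tested on simulated data.

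Named were, for each contrast, the called snoRNA genes with the largest and smallest changes (up to 5 each way), the 10 with the highest mean, a list of well-known snoRNAs, genes sharing a host with at least 2 others, the hosts of these, and core proteins. The replicate numbers were checked for pairing: over 18 same-numbered pairs of arrays in different groups, deviations from the group means correlated at -0.05 to 0.13, so the numbers were not taken as pairs. The snoRNA genes and all gene lists were chosen with earlier results of these data known. Alternatives were other scalings, the dim-gene filter, mean of probe sets, array weights, a replicate block, no fold minimum, fits of 2 groups, and leaving out each array.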

Additional observations from a re-analysis of the deposited data

How the results depend on the processing

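No called snoRNA gene reversed its direction under any alternative run. Numbers are snoRNA genes called higher or lower, against those of the report. With housekeeping centring the counts were 3 higher and 10 lower in ADM minus adult, 6 lower in embryonic minus adult, 9 higher and 14 lower in tumor minus adult, 4 lower in tumor minus ADM, 4 lower in ADM minus embryonic, and 4 higher and 8 lower in tumor minus embryonic. With quantile normalization 10 were lower in ADM minus adult, 6 in embryonic minus adult and 10 in tumor minus adult. With cyclic loess 9 were lower in ADM minus adult, 1 was higher in embryonic minus adult and 10 were lower in tumor minus adult. Of all genes called in tumor minus adult, 70.2% were higher as reported, 53.6% after quantile and 50% after cyclic loess normalization, and 18.1% after housekeeping centring. In ADM minus adult these shares were 74.7%, 54.1%, 56.3% and 38%, and in embryonic minus adult 79.3%, 57.3%, 65.5% and 65.3%. With array weights 11 were higher and 4 lower in tumor minus ADM, 18 higher in tumor minus embryonic and 1 higher in ADM minus embryonic. Fits of the 2 groups alone gave 1 higher and 1 lower in ADM minus embryonic, 2 higher in tumor minus ADM and 3 higher in tumor minus embryonic. The cause of these differences was not tested.

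Leaving out 1 array gave 4 to 5 higher and 5 to 6 lower in ADM minus adult, 1 to 3 and 3 to 5 in embryonic minus adult, 10 to 25 and 5 to 9 in tumor minus adult, 2 to 15 and 2 to 3 in tumor minus ADM, 0 to 1 and 1 to 3 in ADM minus embryonic, and 3 to 23 and 3 to 4 in tumor minus embryonic. The lowest counts of higher genes in the 3 tumor contrasts came without tumor array 2 and the highest without tumor array 1. With the replicate block, tumor minus adult gave 14 higher and 6 lower and tumor minus ADM 3 and 3, with no other count changed. The numbers did not pair the samples by the check above: in 6 of 18 pairs the array correlated best with its own number. The dim-gene filter (58 snoRNA genes left), the mean of probe sets and the lack of a fold minimum moved no count by more than 1.5 times. Of the 73 genes, 15 were not above background in any group, and for these no change can be read.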

Other observations

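The 43 snoRNA probe sets with several symbols, most of which also name the host, were not tested. In Eif4a2, which codes for an RNA helicase of translation initiation, the probe set of Snord2 had group means of 6.32 in adult cells, 7.38 in embryonic cells, 7.71 in ADM cultures and 7.51 in tumor cells, and that of Snora81 had 6.19, 7.74, 7.5 and 7.4. In Snhg7, a probe set of Snora17 had 4.57, 6.41, 6.46 and 7.38, whereas another of the same snoRNA had 4.31, 4.26, 4.29 and 5.08. Snord32a in Rpl13a had 10.14, 8.12, 8.93 and 7.25, whereas Snord33 of the same host had 6.41, 6.21, 6.35 and 6.78. Snord14a in Rps13 had 4.15, 4.74, 5.70 and 5.95, and Snord14e in Hspa8 had 9.47, 8.60, 8.06 and 8.78. The 16 probe sets of the imprinted Snord116 cluster carried identical values, with group means from 3.46 to 4.02, above the background level of 3.62 only in adult cells.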
